A study of Mus musculus with 6 samples.

Results

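Sox10 and Sox14 were the 2 of 8 mouse Sox genes that were higher in Elf5-positive than in Elf5-negative cells sorted from mammary tumours, and none of the 8 was lower, with libraries scaled by TMM factors over all genes. Scaled to 18 epithelial genes instead, 0 of the 8 were higher and 4 were lower (Sox4, Sox9, Sox11 and Sox12). So were 8391 of all 20684 genes tested. These 4 Sox genes, at -1.08 to -1.64 in log2, lay on either side of the median gene, at -1.29. The genes are Sox2, Sox4, Sox9, Sox10, Sox11, Sox12, Sox14 and Sox21, taken by symbol from a table of 52325 Ensembl genes measured by RNA sequencing. All 8 were found in the table and all 8 passed the filter on low counts. The libraries came from breast tumours of C57BL/6 mice of the C3-T tumour model with a reporter, Elf5-GFP, and both groups share this genotype. Elf5, an ETS factor, acts in luminal progenitors and in milk-producing alveolar cells, and the reporter makes cells with active Elf5 carry green fluorescent protein (GFP). The gating used CD45 for leukocytes, CD31 for endothelium and TER119 for erythroid cells, with GFP as the dividing signal. The positive sort (Elf5+) gave 2 libraries and the negative sort (Elf5-) gave 4. Age, the number of animals and any pooling are not given in the labels. The titles carry 1 of 2 numbers and a code, T1 or T2, which the labels do not define. The first number is on Elf5+ library 1 and Elf5- libraries 1 and 2, and the second on the other 3. Elf5+ libraries 1 and 2 and Elf5- libraries 2 and 4 carry T2, and Elf5- libraries 1 and 3 carry T1. The labels do not tie libraries to separate animals. The p-values therefore reflect the spread of these 6 libraries, which may be technical.

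Sox proteins are transcription factors that bind DNA through an HMG box related to that of the sex-determining factor Sry, and they often act with partner factors. They fall into groups by sequence. Sox2 (SoxB1) is a factor of pluripotent and neural stem cells, and Sox14 and Sox21 (SoxB2) are related factors known mostly as repressors in the nervous system. Sox4, Sox11 and Sox12 (SoxC) act in embryonic progenitors and differentiating neurons, and Sox4 is frequently raised in tumours. Sox9 and Sox10, with Sox8, form SoxE. Sox9 directs cartilage formation and marks progenitors of several epithelia, the mammary gland among them. Sox10 is the factor of neural crest, glia and melanocytes, and is also expressed in mammary epithelial progenitors and in basal-like and triple-negative breast tumours.

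Library totals ran from 9106660 counts in Elf5- library 4 to 53694884 in Elf5- library 3. Elf5, on whose reporter the cells were sorted, was at 107 ± 42.0 CPM (counts per 1000000, scaled with TMM factors; SD, n = 2) in Elf5+ and at 13.2 ± 7.84 CPM (SD, n = 4) in Elf5- libraries. Of 12 fibroblast markers, a cell type that the sorting antibodies do not remove, 10 fell, and none was at 0 in either group. Their summed level was 1129 to 1456 CPM in Elf5+ and 18248 to 52322 CPM in Elf5- libraries. Their part in the results below was not tested. A second scale, given below, changes only how libraries are scaled and does not test that part. In bulk libraries, fewer cells of a type and less RNA per cell cannot be told apart. The 18 epithelial genes used below as a second scale, such as Epcam and Cdh1, summed to 6523 to 9435 CPM in Elf5+ and 2418 to 4100 CPM in Elf5- libraries.

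Of 20684 genes tested between the sorts, 121 were higher in Elf5+ libraries (0.585%) and 783 were lower (3.79%; adjusted p below 0.05 by the quasi-likelihood test of edgeR). In either direction 4.37% passed. Against these shares, 2 of 8 Sox genes were higher and 0 were lower. None of these 8 was lower at an unadjusted p below 0.05 in this fit, nor by DESeq2 or limma-voom. Scaled to the epithelial genes, 4 were lower at that level, as were 11432 of all 20684 genes. In the T2 libraries with a block for the title number 1 was, Sox11 (log2 fold change -0.46, edgeR unadjusted p = 0.0240, adjusted p = 0.128). There 2847 of 19395 genes were lower at that level. The groups did not overlap in the same 2 Sox genes, both higher, where 10.9% of all tested genes were higher without overlap, 14.8% lower and 25.7% either. The median log2 fold change of the 8 genes was 0.26, and that of all genes 0.05. In simulated libraries, edgeR called 92.4% of genes set 3 higher in log2 and 71.6% of genes set 3 lower, but 3.2% of those set 1 higher and 0.8% of those set 1 lower. The test thus seldom called differences of that smaller size, and a Sox gene that did not pass is not shown to be equal in the sorts.

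**Figure D1:**
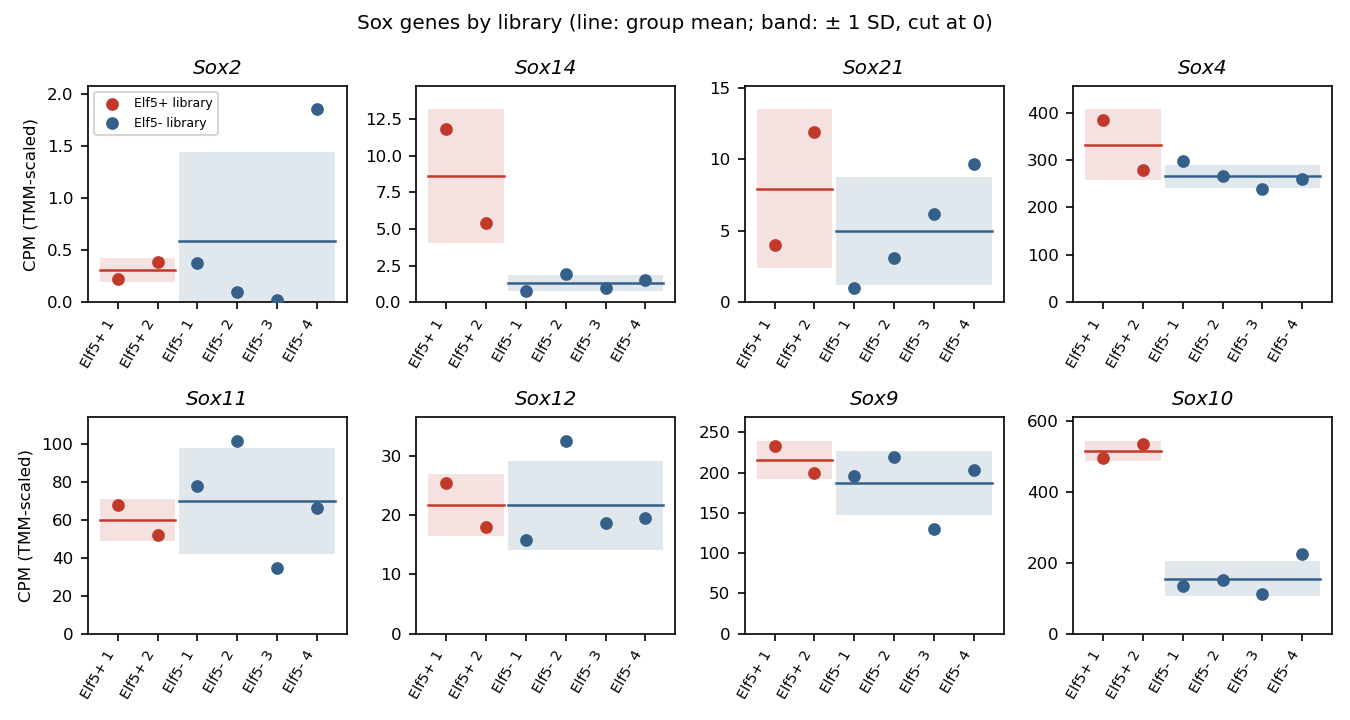
Level of each Sox gene in each library, in CPM on a linear axis from 0. Points are libraries, lines are group means and bands are 1 SD. Sox10 and Sox14 have both Elf5+ libraries above all 4 Elf5- libraries, and the other 6 genes overlap.

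Sox10 (ENSMUSG00000033006.9, chromosome 15, 79154908 to 79165240, minus strand, GRCm38) was at 495 and 535 CPM in Elf5+ libraries 1 and 2. It was at 134, 151, 112 and 224 CPM in Elf5- libraries 1 to 4. Both Elf5+ libraries stood far above every Elf5- library, and among the Elf5- libraries number 4 was the highest. The means were 515 ± 28.1 CPM (SD, n = 2) and 155 ± 48.4 CPM (SD, n = 4), a 3.32-fold difference. The log2 fold change was 1.73 with a standard error of 0.30 (95% interval 1.04 to 2.42; edgeR adjusted p = 0.0215). Elf5- library 4 also had the highest Elf5 level of its group, 24.7 CPM against 6.93 to 10.7 CPM in the other 3. Within the T2 libraries, Sox10 was higher in Elf5+ by 1.70 (libraries of the first title number) and 1.25 (libraries of the second) on the log2(CPM + 1) scale.

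The call on Sox10 did not hold under every subset of libraries. The adjusted p was 0.0735, 0.0544 and 0.0616 without Elf5- libraries 1, 2 and 3, 0.0698 without Elf5+ library 2, 0.229 in the T2 libraries alone and 0.181 without Elf5- libraries 1 and 2 together. The log2 fold change in these 6 subsets lay between 1.46 and 1.72. When libraries were scaled to the 18 epithelial genes in place of TMM, the log2 fold change of Sox10 was 0.37 (95% interval -0.58 to 1.32, adjusted p = 0.468). Per 1000 counts of these epithelial genes, Sox10 had 52.5 and 82.0 counts in the Elf5+ libraries and 55.4, 44.7, 27.3 and 81.3 counts in Elf5- libraries 1 to 4, so that the groups overlapped. With TMM factors the median log2 fold change of the 18 epithelial genes themselves was 1.39, and 10 of them rose.

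Sox9 (ENSMUSG00000000567.5, chromosome 11, 112782224 to 112787760, plus strand), the second SoxE gene studied, was at 233 and 199 CPM in the Elf5+ libraries. It was at 196, 219, 130 and 204 CPM in Elf5- libraries 1 to 4. The groups overlapped, and Elf5- library 3 was the lowest of all. For Sox9 the log2 fold change was 0.21 with a standard error of 0.27 (95% interval -0.41 to 0.83; edgeR adjusted p = 0.782). Scaled to the epithelial genes it was -1.19 and passed as lower (adjusted p = 0.0474). That scaling moves the median of all genes from 0.05 to -1.29, and with it 13 genes were higher and 8391 lower, so this value of Sox9 lies near that of the median gene.

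The ratio of Sox10 to Sox9 within a library does not depend on how libraries are scaled. Per kilobase of exon, the ratio of Sox10 to Sox9 was 2.88 and 3.65 in the Elf5+ libraries and 0.926, 0.938, 1.17 and 1.49 in Elf5- libraries 1 to 4. Both Elf5+ libraries held more Sox10 than Sox9, the Elf5- libraries lay on either side of equal amounts, and the groups did not overlap. The mean log2 ratio was 1.70 ± 0.24 (SD, n = 2) against 0.15 ± 0.32 (SD, n = 4). The exact two-sided permutation p was 0.0667, the smallest that 2 against 4 libraries allow, and 0.400 when adjusted over the 6 ratios of Sox genes computed. Among the other 5 ratios, Sox4 to Sox9 lay at 1.43 and 1.21 in Elf5+ and between 1.05 and 1.59 in Elf5- libraries (exact permutation p = 0.733).

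Sox8 (ENSMUSG00000024176.10), the third SoxE gene and often co-expressed with Sox10 in neural crest derivatives, rose too. It was at 43.7 and 26.3 CPM in Elf5+ libraries, and at 12.3, 11.6, 11.7 and 12.9 CPM in Elf5- libraries 1 to 4. The Elf5- libraries lay close together, and both Elf5+ libraries were above them. For Sox8 the log2 fold change was 1.53 with a standard error of 0.27 (edgeR adjusted p = 0.0218), and 0.12 when scaled to epithelial genes (adjusted p = 0.809). The adjusted p was 0.111 without Elf5+ library 1, 0.0696, 0.0556 and 0.0707 without Elf5- libraries 1, 2 and 3, 0.245 in the T2 libraries alone and 0.190 without Elf5- libraries 1 and 2 together. Sox10 and Sox8 rose with TMM factors while Sox9, of the same group, did not pass, and of these differences only the ratio of Sox10 to Sox9 was tested.

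Sox14 (ENSMUSG00000053747.9, chromosome 9, 99874106 to 99876170, minus strand) had the largest log2 fold change of the 8 genes, at a low level. It had 527 and 279 counts in the Elf5+ libraries and 36, 62, 48 and 15 counts in Elf5- libraries 1 to 4. In CPM these were 11.9 and 5.40 against 0.786, 1.95, 0.976 and 1.54. Both Elf5+ libraries lay above all Elf5- libraries, and library 1 was the higher of the 2 Elf5+ libraries. The means were 8.63 ± 4.56 CPM (SD, n = 2) and 1.31 ± 0.534 CPM (SD, n = 4), a 6.62-fold difference. The log2 fold change was 2.73 with a standard error of 0.52 (95% interval 1.53 to 3.92; edgeR adjusted p = 0.0291). Within the T2 libraries the difference was 2.12 (libraries of the first title number) and 1.33 (libraries of the second) on the log2(CPM + 1) scale. Per 1000 counts of the epithelial genes the groups still did not overlap, with 1.26 and 0.828 against 0.325, 0.576, 0.238 and 0.561, but scaled this way the log2 fold change of 1.31 did not pass (adjusted p = 0.0935).

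The adjusted p of Sox14 was 0.124 without Elf5+ library 1, 0.0815 and 0.0954 without Elf5- libraries 1 and 3, 0.269 in the T2 libraries alone, 0.149 without Elf5- libraries 1 and 2 together and 0.0938 with counts thinned to the smallest total. Of the 2063 stretches of 31 bases in the Sox14 transcripts, 0 occur in annotated transcripts of another gene.

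Sox21 (ENSMUSG00000061517.8, chromosome 14, 118233232 to 118237030, minus strand), the other SoxB2 gene, showed no such separation. It was at 4.00 and 11.9 CPM in the Elf5+ libraries and at 0.960, 3.12, 6.14 and 9.67 CPM in Elf5- libraries 1 to 4. The groups overlapped. The 3 libraries of the second title number were at 6.14 CPM or more, and the 3 of the first at 4.00 CPM or less. For Sox21 the log2 fold change was 0.70 with a standard error of 0.82 (95% interval -1.19 to 2.58; edgeR adjusted p = 0.755). The span of a non-coding gene on the opposite strand, Gm4675, introns included, overlaps that of Sox21 over 799 bases. Of the 31-base stretches of Sox21, 18.6% also occur in transcripts of other genes, Gm4675 foremost, and how reads were split between them is uncertain. Gm4675 held at most 0.600 CPM in any library.

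The sequences before the start sites of Sox14, which rose, and of Sox21 and Sox4, which did not pass, are shown to set the promoters of called and uncalled genes side by side. Each is 250 bases, 5' to 3' on the gene's strand, up to the base before the RefSeq start (GRCm38.p6), with CCAAT and GGGCGG (the GC box) in capitals on either strand. The windows are chr9:99876171-99876420, chr14:118237031-118237280 and chr13:28953700-28953949, all on the minus strand.
Sox14: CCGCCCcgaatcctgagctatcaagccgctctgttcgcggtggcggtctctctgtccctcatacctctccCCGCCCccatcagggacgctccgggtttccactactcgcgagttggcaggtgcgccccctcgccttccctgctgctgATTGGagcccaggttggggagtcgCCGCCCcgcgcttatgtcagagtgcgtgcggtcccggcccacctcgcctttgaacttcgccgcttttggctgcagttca
Sox21: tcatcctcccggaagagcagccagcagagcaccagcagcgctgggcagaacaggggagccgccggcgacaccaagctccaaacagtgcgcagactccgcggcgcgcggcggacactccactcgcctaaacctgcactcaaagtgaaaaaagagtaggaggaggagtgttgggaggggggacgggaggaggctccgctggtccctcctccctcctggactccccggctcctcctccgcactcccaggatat
Sox4: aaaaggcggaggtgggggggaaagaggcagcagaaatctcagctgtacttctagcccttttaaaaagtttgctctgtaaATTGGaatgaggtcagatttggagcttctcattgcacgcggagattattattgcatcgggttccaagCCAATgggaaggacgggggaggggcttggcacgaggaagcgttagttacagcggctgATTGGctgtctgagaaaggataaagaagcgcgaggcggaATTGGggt
Sox14 held 3 GC boxes and 1 CCAAT, Sox4 held 4 CCAAT and 0 GC boxes, and Sox21 held neither. Sox12, which did not pass and is not printed, also held 3 GC boxes and 1 CCAAT. Sox2 and Sox11, which did not pass either, held 2 GC boxes and 1 CCAAT each. These letters therefore do not set Sox14 apart from the uncalled genes. No CCAAT overlapped a GC box. Of 32851 windows of the same length before RefSeq starts, 33.8% held CCAAT and 32.7% held GGGCGG, on either strand. The ETS core AGGAAG (29.5% of windows) was found in Sox4, the ETS core CCGGAA (12.0%) in Sox2 and Sox21, and neither in Sox14. The letters ACAAAG, bound by Sox and Tcf factors (16.5% of windows), were found in Sox2 alone of the 6 genes with a window, and AACAAT (9.42%) and TATAAA (12.4%) in none. A match describes letters and not a bound site. Windows were matched for 6 of the 8 genes, not for Sox9 and Sox10.

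Sox2 (ENSMUSG00000074637.7, chromosome 3, 34650405 to 34652461, plus strand) was close to absent. It had 10 and 20 counts in the Elf5+ libraries and 17, 3, 1 and 18 counts in Elf5- libraries 1 to 4. The 18 counts of Elf5- library 4, the shallowest, make 1.85 CPM, while the other 5 libraries lay between 0.0203 and 0.387 CPM. The log2 fold change was -0.68 with a standard error of 1.40 (edgeR adjusted p = 0.871), and its 95% interval, -3.93 to 2.57, allows a large difference in either direction. Without Elf5- library 4 it was 0.92. Sox2 lies within the long non-coding gene Sox2ot on the same strand, which itself was at 0.0610 to 0.458 CPM. Of 14 pluripotency genes that act with Sox2, such as Pou5f1 and Nanog, 8 were tested and 0 passed, with a median log2 fold change of 0.52. Pou5f1 (Oct4) was at 0.407 ± 0.0285 CPM in Elf5+ (SD, n = 2) and at 0.104 ± 0.0277 CPM in Elf5- libraries (SD, n = 4; edgeR adjusted p = 0.140).

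Sox4 (ENSMUSG00000076431.4, chromosome 13, 28948919 to 28953713, minus strand), a SoxC gene, was abundant in every library. It was at 385 and 279 CPM in the Elf5+ libraries and at 298, 266, 239 and 259 CPM in Elf5- libraries 1 to 4. Elf5+ library 1 was the highest, and Elf5+ library 2 fell below Elf5- library 1. For Sox4 the log2 fold change was 0.32 with a standard error of 0.24 (95% interval -0.23 to 0.88; edgeR adjusted p = 0.591). The span of a non-coding gene on the opposite strand, Gm26735, introns included, overlaps that of Sox4 over 2753 bases. Of the 31-base stretches of Sox4, 54.7% also occur in transcripts of other genes, nearly all in Gm26735. Gm26735 held at most 0.0675 CPM, and the sum of Sox4 and Gm26735 was 332 ± 75.1 CPM in Elf5+ (SD, n = 2) and 266 ± 24.8 CPM in Elf5- libraries (SD, n = 4), the values of Sox4 alone.

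Sox11 (ENSMUSG00000063632.6, chromosome 12, 27334264 to 27342574, minus strand), which is scarce in most adult tissues, was present in all 6 libraries. It was at 67.8 and 52.1 CPM in Elf5+ libraries and at 77.7, 102, 34.4 and 66.0 CPM in Elf5- libraries 1 to 4. The highest and the lowest value both lay in Elf5- libraries. For Sox11 the log2 fold change was -0.22 with a standard error of 0.40 (95% interval -1.14 to 0.70; edgeR adjusted p = 0.847). Sox12 (ENSMUSG00000051817.8, chromosome 2, 152393611 to 152398063, minus strand) was at 25.4 and 18 CPM against 15.8, 32.6, 18.7 and 19.5 CPM. Its group means were 21.7 ± 5.23 CPM (SD, n = 2) and 21.7 ± 7.48 CPM (SD, n = 4), and the log2 fold change was 0.0018 (95% interval -0.80 to 0.80).

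Elf5- library 2 was the highest library for both Sox11 and Sox12, and Elf5- library 3 the lowest for 5 of the 8 genes (Sox2, Sox4, Sox9, Sox10 and Sox11). Scaled to the epithelial genes, Sox4, Sox11 and Sox12 passed as lower, with log2 fold changes of -1.08, -1.64 and -1.35 (edgeR adjusted p = 0.0482, 0.0302 and 0.0322). Under that scaling 8391 of 20684 genes were lower, and the median of all genes was -1.29. Per 1000 epithelial counts, Sox4 had 40.9 and 42.8 counts in Elf5+ libraries and 58.2 to 123 counts in Elf5- libraries. Sox11 had 7.19 and 7.99 counts against 8.40 to 32.1, and Sox12 had 2.69 and 2.76 counts against 4.56 to 9.62. Between the sorts the summed fibroblast markers went the same way. Elf5- library 3 had the lowest of these 3 ratios in its group. It had the highest fibroblast sum and, at 4100 CPM, the highest epithelial sum of its group, by which the ratios are divided. The part of the fibroblasts in the ratios was not tested.

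**Figure D2:**
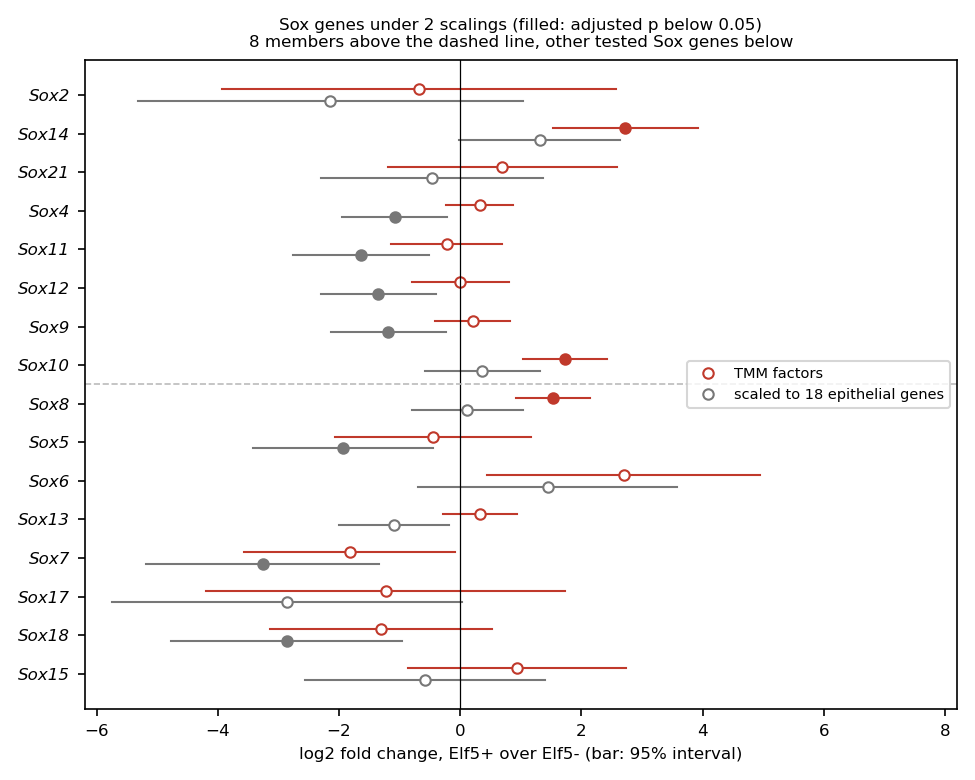
Log2 fold change of Elf5+ over Elf5- libraries for the 8 Sox genes and the 8 other tested Sox genes, with 95% intervals, under TMM factors and scaled to 18 epithelial genes. Filled points passed at an adjusted p below 0.05. Sox10, Sox14 and Sox8 pass with TMM factors, at 1.73, 2.73 and 1.53. They lie at 0.37, 1.31 and 0.12 with the epithelial scaling, where they do not pass. With that scaling Sox4, Sox9, Sox11 and Sox12 pass as lower, and so do Sox5, Sox7 and Sox18 of the other genes. Of all 20684 genes tested, 8391 pass as lower there.

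Of the 14 genes linked to SoxC factors in neurons and progenitors 12 were tested, 2 fell and 0 rose, with a median log2 fold change of 0.12. Scaled to the epithelial genes, 5 were lower and 0 higher, with a median of -1.30. Under that scaling 8391 of 20684 genes were lower, and the median of all genes was -1.29. Dpysl3, a neuronal growth cone protein, and Ncam1, a neural cell adhesion molecule, fell, with log2 fold changes of -4.52 (SE 0.56) and -2.64 (SE 0.47; edgeR adjusted p = 0.0114 and 0.0251). For Ncam1 the adjusted p was 0.0887 without Elf5+ library 2, 0.0664 without Elf5- library 3, 0.116 in the T2 libraries alone and 0.0746 without Elf5- libraries 1 and 2 together, and in these last 2 subsets it was 0.0821 and 0.0517 for Dpysl3. Dpysl3 was at 4.84 ± 1.10 CPM in Elf5+ (SD, n = 2) and at 111 ± 58.9 CPM in Elf5- libraries (SD, n = 4). The fibroblast markers fell in the same libraries, and their part was not tested. Dcx, the neuronal doublecortin, was at 1.32 ± 1.29 CPM against 0.209 ± 0.149 CPM, and Tubb3, a neuronal tubulin, at 1.04 ± 1.14 CPM against 8.18 ± 5.90 CPM (SD, n = 2 and 4). Neither passed (edgeR adjusted p = 0.122 and 0.169).

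Levels of different genes are compared here as CPM per kilobase of annotated exon. In Elf5+ libraries Sox10 was the most abundant of the 8, at 169 ± 9.21 CPM per kb (SD, n = 2), followed by Sox4 at 69.3 ± 15.7 and Sox9 at 52.2 ± 5.78. Sox11 was at 7.22 ± 1.33, Sox12 at 4.87 ± 1.17, Sox14 at 4.18 ± 2.21, Sox21 at 2.09 ± 1.47 and Sox2 at 0.149 ± 0.0557 CPM per kb. In this order Sox12 overlapped with Sox14 and Sox14 with Sox21, while the other neighbours did not overlap between the 2 libraries. In Elf5- libraries Sox4, Sox10 and Sox9 were at 55.4 ± 5.17, 50.9 ± 15.9 and 45.2 ± 9.53 CPM per kb (SD, n = 4) and overlapped one another. Below them stood Sox11 at 8.42 ± 3.37, Sox12 at 4.87 ± 1.68, Sox21 at 1.31 ± 0.996, Sox14 at 0.637 ± 0.259 and Sox2 at 0.284 ± 0.417 CPM per kb. Sox11 overlapped with Sox12, Sox21 with Sox14 and Sox14 with Sox2.

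Sox10 made up 50.8% and 58.9% of the summed CPM per kb of the 8 genes in Elf5+ libraries. Its share was 26.2%, 27.7%, 28.6% and 37.9% in Elf5- libraries 1 to 4. The shares of Sox4 and Sox9 were 25.1% and 19.5%, and 17.6% and 16.1%, in Elf5+ libraries 1 and 2. In Elf5- libraries Sox4 took 28.0% to 38.8% and Sox9 24.5% to 29.5%. The sum of all 8 was 320 and 298 CPM per kb in Elf5+ and 128 to 193 CPM per kb in Elf5- libraries. Sox14 took 1.80% and 0.877% of it in Elf5+ libraries and at most 0.527% in any Elf5- library.

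**Figure D3:**
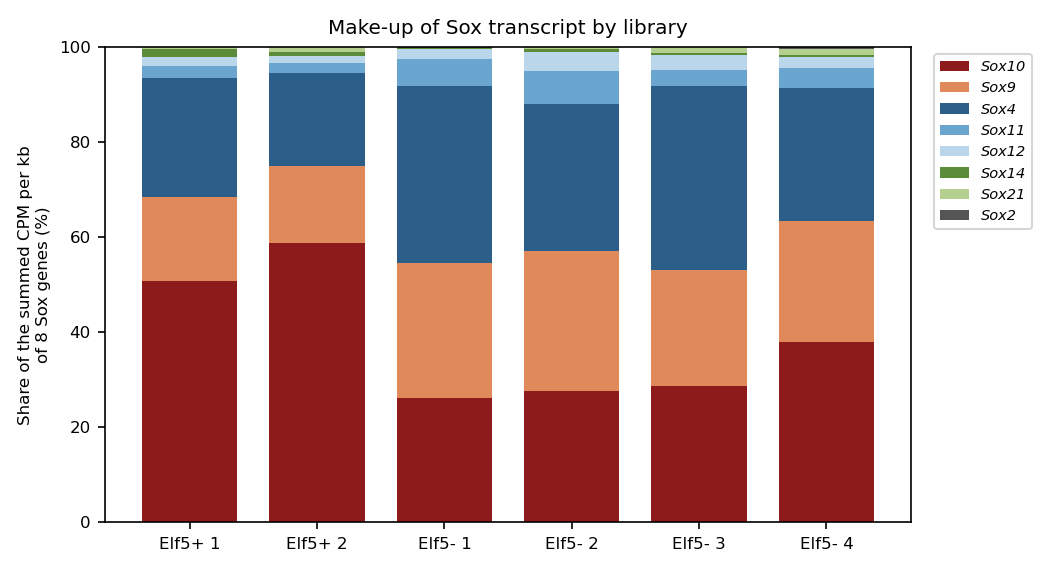
Share of each gene in the summed CPM per kb of the 8 Sox genes, in percent, for each library. Sox10 holds 50.8% and 58.9% in the Elf5+ libraries and at most 37.9% in the Elf5- libraries.

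Of 12 other Sox family genes 8 were tested. With TMM factors Sox8 was the single one that passed, and their median log2 fold change was -0.06. Scaled to the epithelial genes, 0 were higher and 3 lower (Sox5, Sox7 and Sox18), with a median of -1.51. Under that scaling 8391 of 20684 genes were lower, and the median of all genes was -1.29. Sry, Sox1, Sox3 and Sox30 had at most 7 counts in any library and were not tested. Sox6, a SoxD partner of Sox9 in cartilage, was at 35.9 CPM in Elf5+ library 2, 4.32 CPM in Elf5+ library 1 and 0.725 to 7.92 CPM in Elf5- libraries. Its log2 fold change was 2.70 (SE 0.98; edgeR adjusted p = 0.200), and 0.47 without Elf5+ library 2. Sox5, the related SoxD gene, was at 33.2 and 9.97 CPM against 10.2 to 54.6 CPM (log2 fold change -0.45, edgeR adjusted p = 0.822). Sox13, the last SoxD gene, had a log2 fold change of 0.33 (edgeR adjusted p = 0.620), and Sox15, of skin and muscle progenitors, one of 0.94 (adjusted p = 0.637). Sox7, Sox17 and Sox18, the SoxF genes of endothelium, had log2 fold changes of -1.82, -1.23 and -1.31 and did not pass with TMM factors (edgeR adjusted p = 0.269, 0.720 and 0.489). Endothelial markers moved with them. Of 12, 3 fell, none was at 0, and their sum was 27.6 to 55.7 CPM in Elf5+ and 81.1 to 182 CPM in Elf5- libraries. Their part in the SoxF values was not tested.

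Cartilage genes include known targets of Sox9 with its SoxD partners. Of 14 listed, 13 were tested, 1 rose and 0 fell, with a median log2 fold change of 0.42. Scaled to the epithelial genes, 0 were higher and 4 lower, with a median of -0.88. Under that scaling 8391 of 20684 genes were lower, and the median of all genes was -1.29. Col9a2, a chain of the fibril-associated collagen IX, was at 375 and 310 CPM in Elf5+ libraries and at 41.4, 43.4, 69.8 and 107 CPM in Elf5- libraries 1 to 4. No Elf5- library reached the Elf5+ libraries, and the log2 fold change was 2.39 (SE 0.39; edgeR adjusted p = 0.0178). It was 1.03 (adjusted p = 0.0742) when scaled to epithelial genes, and the adjusted p was 0.0567 and 0.0647 without Elf5- libraries 1 and 3, 0.236 in the T2 libraries alone and 0.0913 without Elf5- libraries 1 and 2 together. The other collagen IX chains, Col9a1 and Col9a3, stood 1.75 (SE 0.51) and 1.74 (SE 0.52) higher in log2. Both had no overlap between groups but did not pass (edgeR adjusted p = 0.112 and 0.118). Both passed with DESeq2 (adjusted p = 0.0232 and 0.0225) and with no filter on low counts (edgeR adjusted p = 0.0204 and 0.0194), and Col9a3 passed without Elf5- library 4 (0.0177). Col10a1, the collagen of hypertrophic cartilage, was at 0.174 ± 0.136 CPM in Elf5+ (SD, n = 2) and at 8.15 ± 10.5 CPM in Elf5- libraries (SD, n = 4; edgeR adjusted p = 0.0747).

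Of 18 neural crest and glial genes that act with or under SoxE factors, 15 were tested, 0 rose and 2 fell, with a median log2 fold change of -1.33. Scaled to the epithelial genes, 0 were higher and 9 lower, with a median of -2.54. Under that scaling 8391 of 20684 genes were lower, and the median of all genes was -1.29. Snai2, the repressor known to act with Sox9 in mammary stem cells, fell, with 0.517 ± 0.0628 CPM in Elf5+ (SD, n = 2) and 9.69 ± 3.58 CPM in Elf5- libraries (SD, n = 4). Its log2 fold change was -4.22 (SE 0.55; edgeR adjusted p = 0.0121). Ngfr, the nerve growth factor receptor of neural crest cells, fell by 4.95 on the log2 scale (SE 1.01; edgeR adjusted p = 0.0375). For Ngfr the adjusted p was 0.0959 without Elf5+ library 2, 0.0907, 0.0683 and 0.0741 without Elf5- libraries 1, 2 and 3, 0.241 in the T2 libraries alone and 0.175 without Elf5- libraries 1 and 2 together. For Snai2 it was 0.111 and 0.0731 in these last 2 subsets, and 0.117 when thinned. Both fell with the fibroblast markers, whose part was not tested. Mia, a secreted protein of cartilage and melanocytic cells, was at 15.2 and 30.0 CPM in Elf5+ libraries and at 2.79, 3.37, 5.35 and 9.15 CPM in Elf5- libraries 1 to 4. Erbb3, a neuregulin receptor of glia and luminal cells that Sox10 is known to activate, was at 79.0 and 210 CPM against 31.5, 25.8, 46.9 and 67.8 CPM. Both were higher without overlap but did not pass, with log2 fold changes of 2.15 (SE 0.51) and 1.75 (SE 0.47; edgeR adjusted p = 0.0602 and 0.0863). Both passed with DESeq2 (adjusted p = 0.00143 and 0.0128) and with no filter on low counts (edgeR adjusted p = 0.00984 and 0.0118). Mia also passed with limma-voom (0.0306) and without Elf5- library 4 (0.0303), and Erbb3 without Elf5+ library 1 (0.0326). Snai2 and Ngfr thus fell where Sox10 rose.

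**Figure D4:**
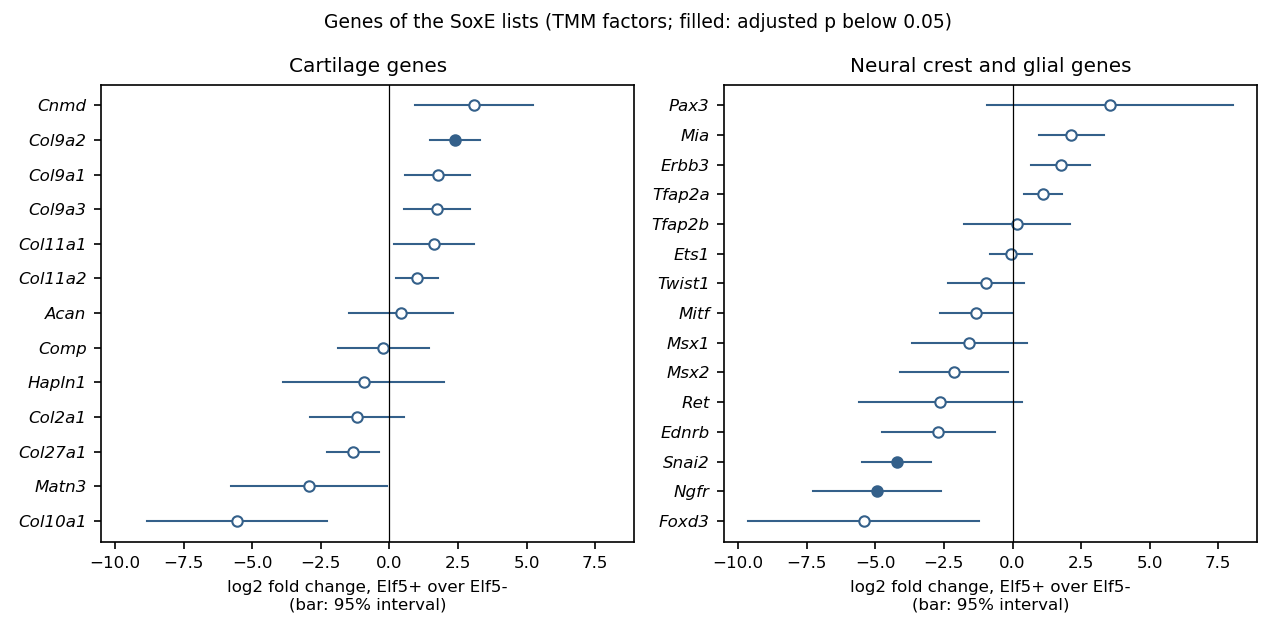
Log2 fold change of Elf5+ over Elf5- libraries, with 95% intervals and TMM factors, for the tested cartilage genes (left) and neural crest and glial genes (right). Filled points passed, and these were Col9a2 at 2.39, Snai2 at -4.22 and Ngfr at -4.95.

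Schwann cells and melanocytes express Sox10 and could be among the sorted cells. Of 14 Schwann cell markers 12 were tested, 0 rose and 2 fell (Scn7a and Pmp22, log2 fold changes -5.89 and -1.69), with a median of -0.31. Their summed level was 364 to 547 CPM in Elf5+ and 376 to 568 CPM in Elf5- libraries, and none was at 0 in every library of a group. Mbp, a myelin protein, was at 51.2 and 147 CPM in Elf5+ and 16.6 to 39.5 CPM in Elf5- libraries, without overlap, and did not pass (log2 fold change 1.69, edgeR adjusted p = 0.0847). Of 8 melanocyte markers 5 were tested, and Gpnmb, which macrophages also express, was the one that passed (log2 fold change -4.90, edgeR adjusted p = 0.0267). Their sum was 3.64 to 3.89 CPM in Elf5+ and 8.84 to 34.1 CPM in Elf5- libraries, and Oca2 and Slc45a2 were at 0 in both Elf5+ libraries. Most of this sum in each Elf5- library was Gpnmb, at 6.58 to 31.5 CPM there. Gpnmb was at 0.855 and 0.445 CPM in Elf5+ libraries 1 and 2. The other tested melanocyte markers (Mlana, Dct, Tyr and Pmel) overlapped between the groups. The part of these cells in the Sox10 difference was not tested.

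Of 9 pericyte and smooth muscle markers 5 fell, with a median log2 fold change of -4.25, none was at 0, and their sum was 92.7 to 113 CPM in Elf5+ and 519 to 1099 CPM in Elf5- libraries. Of 9 hair follicle and skin markers with counts listed, 6 were tested and 0 passed, and their sum was 16.3 to 25.2 CPM over the 6 libraries. Of 10 neuroendocrine markers 3 were tested and 0 passed, and their sum was at most 5.26 CPM in any library. Skeletal muscle markers summed to 252 and 47.8 CPM in Elf5- libraries 1 and 2 and to at most 12.4 CPM in the other 4, none of 10 tested passed, and none was at 0 in every library of a group. Leukocyte markers summed to 72.7 to 188 CPM in Elf5+ and 79.7 to 435 CPM in Elf5- libraries, and none of 10 passed. Among 18 mammary basal and stem cell genes 8 fell and 0 rose, with a median log2 fold change of -2.71. The sums of the fibroblast and of the pericyte and smooth muscle markers were also lower in Elf5+ libraries, and their part was not tested. Scaled to the epithelial genes, 13 of the 18 were lower, with a median of -4.00. Under that scaling 8391 of 20684 genes were lower, and the median of all genes was -1.29. With TMM factors Krt5, a basal keratin, fell by 4.18 on the log2 scale (SE 0.58; edgeR adjusted p = 0.0132). Its partner keratin Krt14 was at 562 and 533 CPM in Elf5+ and 288 to 490 CPM in Elf5- libraries and did not pass (log2 fold change 0.52, edgeR adjusted p = 0.407). Krt14 is named after its values were seen. Among 16 luminal progenitor genes 4 rose and 0 fell, with a median of 1.43, where 0.585% of all genes tested rose and 3.79% fell. Scaled to the epithelial genes, 0 of the 16 were higher and 4 lower, with a median of 0.13 where that of all genes was -1.29. With TMM factors Lcn2, a secreted lipocalin, rose by 2.04 on the log2 scale (SE 0.39; edgeR adjusted p = 0.0294). 

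For each Sox gene the 3 genes of most similar pattern were taken by the root mean square difference of centred log2(CPM + 1) values over the 6 libraries. Camsap3, a protein of microtubule minus ends, was nearest to Sox10, with a difference of 0.22 on the log2 scale where Sox10 itself varied by 0.89. Camsap3 was at 111 and 116 CPM in Elf5+ libraries and at 25.9 to 35.8 CPM in Elf5- libraries. Klc3, a kinesin light chain, and Cracr2b, a regulator of calcium channels, followed with differences of 0.24 and 0.25. Nearest to Sox14 were Ctnnd2 (0.19), a delta-catenin of cell junctions, Cracr2b again (0.24) and Rnf39 (0.31), where Sox14 varied by 1.01. Since they were chosen for patterns like those of Sox10 and Sox14, their differences between the sorts follow from the choice. Their log2 fold changes ran from 1.42 for Klc3 to 2.53 for Ctnnd2. Sox21 was nearest to Cwh43 (0.22), the plakophilin Pkp1 (0.22) and Spp1 (0.29), the secreted osteopontin. Sox11 was nearest to Dusp10, a phosphatase of stress kinases (0.17), Sox12 to Abhd17a (0.058), Sox4 to Slc35e2 (0.051), Sox9 to Snrnp70 (0.059) and Sox2 to Id4 (0.18). Sox2 is so low that its pattern is that of a few counts.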

How the data were processed

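RNA of 6 sorted cell populations, 2 Elf5+ and 4 Elf5- by the labels, was sequenced. Expected counts (estimated, deposited as whole numbers, 1 value per Ensembl gene and library) come from the authors' use of Salmon on GRCm38.p5, as the submitters' processing notes list. The Salmon version and the annotation are not named in the sources used here. Strand is not stated, so overlapping genes on opposite strands are uncertain. Gene symbols were matched for 52220 of 52325 IDs without version, and 77 IDs that shared a symbol were kept under their ID. Coordinates and exon lengths are from GENCODE M21 (GRCm38), and promoters from RefSeq (GRCm38.p6).

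Genes with low counts were removed with filterByExpr, libraries were scaled with TMM factors and groups were compared with edgeR 4.0.16 (quasi-likelihood, no block, R 4.3.3, limma 3.58.1, DESeq2 1.42.0), with Benjamini-Hochberg adjustment over all 20684 genes and a threshold of 0.05. No count was changed by rounding. Standard errors are the log2 fold change over the root of F. Figures used Python 3.11.15 and matplotlib 3.10.9. Simulated data with known changes (5 sets of 20684 genes) gave 452 calls, of which 32 were false. The 8 genes, 8 gene lists and 9 marker lists were chosen with earlier results of these data known. Genes named are the 8, Elf5, the tested Sox genes, up to 4 of smallest p of each list and up to 3 of similar pattern with a mean of at least 5 CPM. Transcripts overlapping a Sox gene were added after values were seen. Some marker genes are not reported here. Alternatives were a block for the title number, DESeq2, limma-voom, RLE factors, scaling to epithelial genes, 2 other filters, thinning, the T2 libraries alone and each library left out. Leaving out Elf5- libraries 1 and 2 together was chosen after seeing the data. Low genes are least precise in the shallowest library.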

Additional observations from a re-analysis of the deposited data

How the results depend on the processing

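Sox10 and Sox14 kept their direction in all 17 alternatives and passed in 10 of them each. The 2 Sox genes called higher became 0 when scaled to epithelial genes, in the T2 libraries alone and without Elf5- libraries 1 and 2 (an alternative added after seeing the data), 1 when thinned, and 0 to 2 with 1 library left out. The 0 called lower became 4 when scaled to epithelial genes and stayed 0 elsewhere.

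Of all genes, 121 higher and 783 lower became 13 and 8391 when scaled to epithelial genes, 273 and 1331 with no low-count filter, 381 and 1710 with DESeq2, 0 and 0 in the T2 libraries alone (469 and 1463 at an unadjusted p below 0.05), and 0 and 75 without Elf5- libraries 1 and 2. With 1 library left out, 25 to 133 were higher and 197 to 811 lower. Without an Elf5+ library that arm has 1 sample, assumed to vary like the other group.

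With the title number as a replicate block 252 were higher, and with the block in the T2 libraries 549 and 1368. The labels do not say that the number marks an animal or batch. In T2 libraries the deviations of same-numbered libraries from their group means correlated at 0.584 and 0.666 across genes, and at 0.14 and -0.036 with the T1 library of that number. The deviations of 2 Elf5+ libraries from their mean are exact opposites, so these values are not independent of one another. Under the block Sox10 and Sox14 still passed, and no other Sox gene of the 8 did. Col9a1, Col9a3, Mia and Erbb3, which did not pass without the block, passed with it (edgeR adjusted p = 0.0431, 0.0289, 0.0139 and 0.0135), and Col9a1, Mia and Erbb3 also in the T2 libraries with it (0.0295, 0.0122 and 0.00504). Sox6 passed with the block in the T2 libraries (log2 fold change 2.36, edgeR adjusted p = 0.00853), with DESeq2 (0.0325) and with no low-count filter (0.0429).

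Genes that did not pass changed sign in places, and the cause was not tested. Scaled to epithelial genes Sox4, Sox9, Sox12 and Sox21 were at -1.08, -1.19, -1.35 and -0.47, and Sox13 and Sox15 at -1.09 and -0.58. Sox12 was at -0.040 with no filter, -0.0071 with the replicate block, -0.26 in the T2 libraries, -0.24 there with the block, and -0.27 to 0.27 with 1 library left out. Sox2 was at 0.95 with limma-voom and -1.17 to 0.92 with 1 library left out. Sox11 was at 0.30 without Elf5- libraries 1 and 2 and -0.45 to 0.012 with 1 left out. Sox21 ranged from -0.30 to 1.28, Sox5 from -1.56 to 0.17, Sox13 from -0.090 to 0.66 and Sox15 from -0.51 to 1.65 with 1 library left out (for Sox5, 0.035 without Elf5- library 2). Without Elf5- libraries 1 and 2, Sox5 and Sox17 were at 0.61 and 0.65. Thinned, Sox17 and Sox18 were at 0.30 and 0.43, and Sox2 was not tested.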
